A study of Homo sapiens with 12 samples.

Results

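The transcripts of 9 genes of the complement system were followed in human cells with and without mitochondrial DNA: the components C3, CFB, C1R and C1S, the fluid-phase regulators SERPING1 and CLU, and the membrane regulators CD46, CD55 and CD59. They were taken as all 18 probe sets, of 22283 on the Affymetrix array, whose single annotated gene is a member, out of 11963 genes in all. The 9 genes were chosen on measured values of these arrays, which are counted here as the ρ° against ρ+ contrasts of both lines. Their changes are therefore given as a description without a test, and tests are given for genes that are no members.

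RNA came from 4 groups of cells with 3 arrays each: ρ° and ρ+ cells of A549, a line from a lung carcinoma, and the same pair of 143BTK−, a bone tumour (osteosarcoma) line without thymidine kinase. The ρ° cells had been kept in 50 ng/ml ethidium bromide for 3 weeks, which removes mtDNA, and were pooled without picking clones, so each ρ° line is 1 pool of treated cells. The ρ+ cells are the parental cells with their mtDNA. All 4 groups grew in high-glucose DMEM with 10% foetal calf serum, 1 mM pyruvate and 50 µg/ml uridine, supplements that ρ° cells need and that the ρ+ cells received as well. Nothing in the labels says that the 3 arrays of a group came from separate treatments, so the spread measures the difference between these arrays.

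Complement is a cascade of serum proteins that marks and lyses cells and microbes. The classical pathway starts when C1q binds a target and the proteases C1r and C1s become active, the alternative pathway runs through factor B (CFB), and both lead to the cleavage of C3, the central component. The C1 inhibitor (SERPING1) holds C1r and C1s in check, clusterin (CLU) binds the terminal complex in fluid, and CD46, CD55 and CD59 protect the cell's own membrane: CD46 as a cofactor of C3b and C4b cleavage, CD55 by breaking up the convertases, and CD59 by blocking the last step of pore formation. The liver makes most serum complement, and epithelial cells of the lung make some locally.

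Values are MAS5 signals, in arbitrary units on a linear scale, with the lines normalized separately, so that a level in A549 is not set against a level in 143BTK−. In each line the brightest 13370 probe sets by mean log2 signal were kept, and the lowest mean signal kept was 17.9 in A549 and 15.0 in 143BTK−; no size of change is given where a group mean lies under it. The median signal was 31.4 in A549 and 27.6 in 143BTK−. In 143BTK−, the ρ° B and ρ+ C arrays correlated less with the other 4 arrays (Pearson r 0.8846 to 0.9287) than those 4 among themselves (0.9384 to 0.9658). With each other their r was 0.9201, lower than that of ρ+ C with ρ+ B (0.9287). Their deviations from their own group means correlated with r = 0.41 over the kept probe sets. This value does not single them out, as the ρ° A and ρ+ A arrays reached 0.39. The member changes of 143BTK− are given with and without the ρ° B and ρ+ C arrays. Of the epithelial markers kept in A549 (5 of 6), 4 fell in ρ° cells at an adjusted p under 0.05 from limma. KRT19 and KRT18 kept the call in every setting run, while KRT8 and CDH1 lost it in several, CDH1 also with the replicate block (adjusted p = 0.057 from limma). KRT19, an epithelial keratin, had signals of 2.1, 5.5 and 3.0 in ρ° against 373.3, 381.4 and 471.4 in ρ+ cells, and the summed signal of the 6 epithelial markers was 4924 to 8644 in ρ° against 12714 to 15404 in ρ+ cells. The leukocyte markers summed to at most 125.1 in A549 and 49.3 in 143BTK−, and those of hepatocytes to at most 149.3 and 34.8. Of the bone and mesenchymal markers, VIM was high in both lines (2447 to 7106). KRT18, an epithelial keratin, also reached 2832 to 5027 in the osteosarcoma line. The other epithelial markers were lower there: KRT8, KRT7 and EPCAM had means of 76.8, 29.7 and 35.7 in ρ° and 127.8, 11.3 and 33.6 in ρ+ cells. KRT19 and CDH1 were not kept in 143BTK−. SPARC had 734 and 595 (ρ° and ρ+) in 143BTK− and was not kept in A549. CDH2 had 230 and 136 in 143BTK− and 21.0 and 34.1 in A549. COL1A1 had 87.8 and 87.0 in 143BTK− and 82.6 and 75.7 in A549.

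In A549 cells without mtDNA, C3 was far lower, C1R, CLU and CD59 were higher by most or all of their probe sets, the arrays of C1S and CD55 overlapped between the groups, and CD46 differed between its probe sets. The groups of 3 arrays did not overlap in 9 of the 15 kept member probe sets of A549, 7 higher and 2 lower in ρ° cells. Among all kept probe sets of A549, 15.7% were higher without overlap and 15.9% lower. In 143BTK− none of the 11 kept member probe sets separated the groups (0 of 11), against 15.0% of all kept probe sets in either direction. As the members were chosen on these contrasts, nothing is read from these shares. The median log2 change was 0.53 over the 15 member probe sets in A549 and 0.06 over the 11 in 143BTK−, beside −0.003 and −0.0019 over all kept probe sets. Several of these probe sets read the same gene. Counting each gene once, by its brightest kept probe set, the medians were 0.33 over 7 genes in A549 and 0.13 over 4 in 143BTK−.

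**Figure D1:**
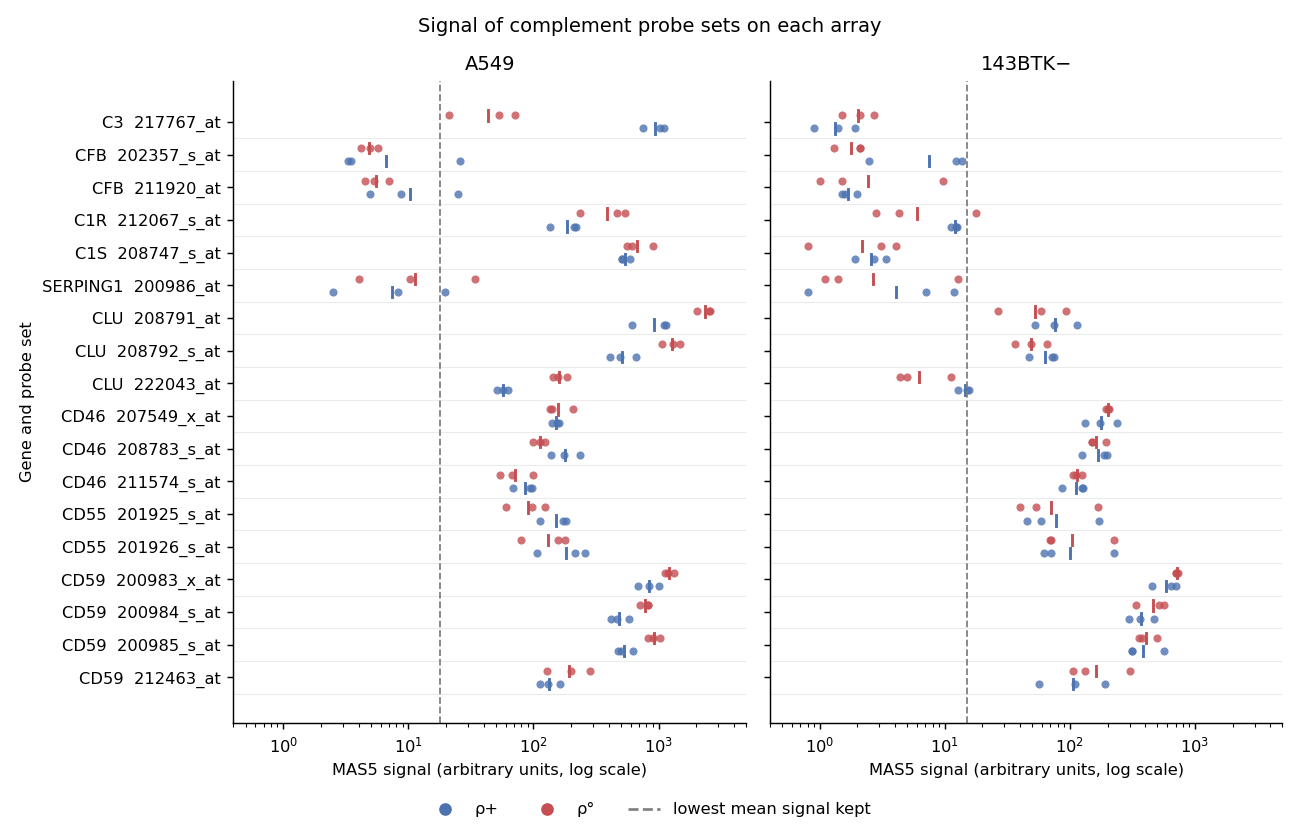
MAS5 signal (log axis, arbitrary units) of the 18 complement probe sets on each array of A549 and 143BTK−. Each point is 1 array, vertical bars are geometric means of 3 arrays, and the dashed line is the lowest mean signal kept in the line; the C3 points of A549 ρ° cells (21.2 to 71.3) lie left of the ρ+ points (745.5 to 1099.5), and the means of the component genes in 143BTK− lie left of the dashed line.

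C3 was the member with the largest difference. In A549 its probe set 217767_at had signals of 71.3, 52.7 and 21.2 on the ρ° arrays and 1023.2, 745.5 and 1099.5 on the ρ+ arrays. Every ρ° array lay below every ρ+ array, and the highest ρ° signal was still far under the lowest ρ+ signal. The means were 48.4 ± 25.3 for ρ° and 956 ± 186 for ρ+ arrays (SD, n = 3), 21.9-fold lower as a ratio of geometric means, with a log2 change of −4.45 (SE 0.55). Leaving out 1 array at a time gave −4.82 to −3.94. In RNA of whole cultures, fewer C3-expressing cells and less C3 RNA per cell cannot be told apart. KRT8, KRT18 and KRT19 fell in the same A549 arrays, and their part in the C3 difference was not tested. In 143BTK− the C3 signal was at most 2.7 on any array of either group, under the kept range.

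CFB, the protease of the alternative pathway C3 convertase, was not kept in either line. Its probe sets 202357_s_at and 211920_at had signals of 4.2 to 7.0 in ρ° and 3.3 to 25.8 in ρ+ cells of A549, with overlap between the groups. In 143BTK− the signals were 1.0 to 13.7 for both probe sets. There the ρ° signals of 202357_s_at (2.1, 2.1 and 1.3) lay under the ρ+ signals (13.7, 2.5 and 12.2), while those of 211920_at overlapped. Of all probe sets not kept in 143BTK−, 4.63% were lower in ρ° cells without overlap.

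C1R and C1S encode the proteases of the C1 complex and lie next to each other on chromosome 12. In A549 the C1R probe set 212067_s_at had signals of 467.9, 542.6 and 234.0 on the ρ° arrays against 220.3, 213.0 and 134.5 on the ρ+ arrays. The ρ° arrays were all higher, with the C arrays the lowest of each group and the lowest ρ° signal only a little above the highest ρ+ signal. The log2 change was 1.08 (SE 0.44), a 2.11-fold difference, and ranged from 0.84 to 1.45 with 1 array left out. C1S (208747_s_at) had signals of 613.7, 903.9 and 558.2 in ρ° and 514.8, 513.8 and 591.6 in ρ+ cells. Its groups overlapped, with a log2 change of 0.33 (SE 0.22) beside the 1.08 of its partner protease, and whether these changes differ was not tested. In 143BTK− the signals of C1R were 2.8 to 17.7 and those of C1S 0.8 to 4.1, neither kept.

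The promoter of C1R is shown because C1R was higher in the A549 ρ° cells and because promoter sequences of neither C3 nor C1S were used here. The window runs from 250 bases before to 50 bases after the annotated start of the gene (RefSeq, GRCh38.p14, chr12:7092396-7092695, minus strand). Capitals mark a match to 1 of 5 short motifs searched on both strands. Those of NF-kB (GGGANTTTC), STAT (TTCNNNGAA) and C/EBP (TTGCNNAA) stand for factors known to drive complement genes in inflammation, and the GC box (GGGCGG) and TATA box (TATAAA) are general promoter elements.
C1R: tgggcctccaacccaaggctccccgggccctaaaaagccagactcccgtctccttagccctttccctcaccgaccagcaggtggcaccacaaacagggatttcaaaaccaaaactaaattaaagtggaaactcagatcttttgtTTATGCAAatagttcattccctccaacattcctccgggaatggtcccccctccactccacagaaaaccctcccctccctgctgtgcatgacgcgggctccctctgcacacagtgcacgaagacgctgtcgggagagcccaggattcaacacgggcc
The only match in this window was to the C/EBP motif, on the minus strand and starting at base −106, and 10.5% of all 35116 promoter windows hold that motif. A match of letters is a description and no evidence of binding.

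SERPING1, the inhibitor of C1r and C1s, was not kept in either line. The probe set 200986_at had signals of 4.0, 10.4 and 34.4 in ρ° and 8.3, 19.7 and 2.5 in ρ+ cells of A549, and of 1.4, 1.1 and 12.7 against 11.9, 7.1 and 0.8 in 143BTK−. The groups overlapped in both lines, and no size is given.

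CLU, a secreted chaperone that also binds the terminal complement complex, was higher in A549 ρ° cells by each of its 3 probe sets. The probe set 208791_at had signals of 2595.6, 2527.8 and 2018.9 on the ρ° arrays and 1098.9, 1146.7 and 618.7 on the ρ+ arrays. The signals of 208792_s_at were 1481.5, 1306.9 and 1068.8 against 490.3, 666.3 and 409.9, and those of 222043_at 155.9, 142.4 and 185.8 against 62.5, 51.0 and 57.6. No ρ° array overlapped a ρ+ array in any of the 3, and the probe sets gave similar log2 changes of 1.36 (SE 0.31), 1.32 (SE 0.25) and 1.50 (SE 0.14). As fold differences these were 2.57, 2.49 and 2.82. The probe sets read the same gene and are not independent of each other.

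In 143BTK− the mean CLU signals were lower in ρ° cells, within the spread of the arrays for the kept probe sets. The signals of 208791_at were 26.4, 92.7 and 58.7 in ρ° and 75.0, 52.6 and 114.6 in ρ+ cells, and those of 208792_s_at 49.1, 66.1 and 36.7 against 74.6, 46.8 and 71.4. Both overlapped, with log2 changes of −0.55 (SE 0.62) and −0.36 (SE 0.33). The first ranged from −0.96 without ρ° B to −0.06 without ρ° A. The probe set 222043_at, not kept in this line, had 11.2, 4.4 and 5.0 in ρ° against 12.8, 15.1 and 15.5 in ρ+ cells, without overlap but at the level where no size is given. Without the ρ° B and ρ+ C arrays the changes of the kept pair were −0.67 and −0.48. The ρ° effect in A549 minus that in 143BTK− was 1.91 (SE 0.57) and 1.67 (SE 0.39) on the log2 scale for 208791_at and 208792_s_at, in the fit of all 12 arrays. These differences belong to the contrasts that the choice of the genes used and carry no test.

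**Figure D2:**
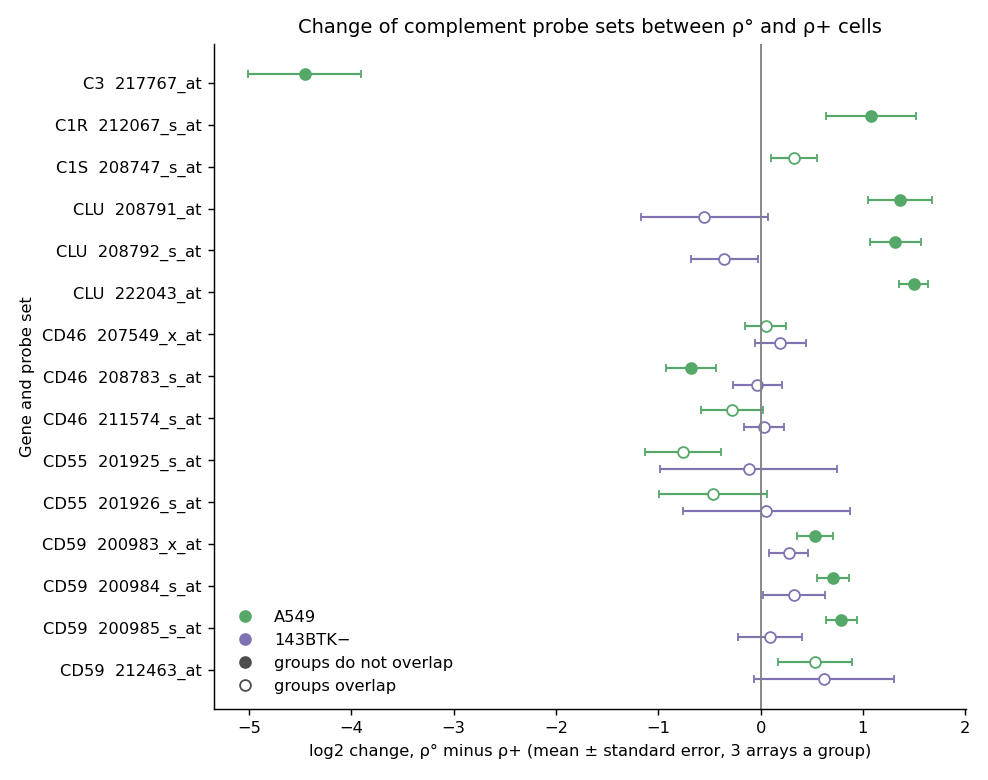
Log2 change (ρ° minus ρ+, horizontal axis) of the member probe sets kept in A549 (15, green) and in 143BTK− (11, purple). Points are differences of means of 3 arrays with their standard errors, filled where the groups do not overlap; C3 stands at −4.45 in A549, the 3 CLU probe sets lie between 1.32 and 1.50, and every point of 143BTK− is open.

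CD46 is a cofactor of C3b and C4b cleavage, and CD55 breaks up the convertases. Both had lower or nearly equal mean signals in A549 ρ° cells, depending on the probe set. For CD46, 208783_s_at was lower in ρ° cells, with 99.7, 124.4 and 113.2 against 175.5, 138.2 and 237.4. These groups did not overlap, with a log2 change of −0.68 (SE 0.24). The other CD46 probe sets overlapped: 207549_x_at had 206.3, 141.9 and 134.9 against 161.6, 141.9 and 155.6 (log2 change 0.05, SE 0.20), and 211574_s_at changed by −0.28 (SE 0.30). The result for CD46 thus depends on the probe set, and the mean over all 3 was −0.30. Sets named _x_at may also pick up related transcripts, and sets named _s_at read several transcripts, so the sets need not measure the same mixture of CD46 isoforms. In 143BTK− the 3 CD46 probe sets changed by −0.03 to 0.19, with overlap in each.

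For CD55 the A549 signals were 124.4, 96.7 and 60.8 in ρ° against 171.8, 182.4 and 113.8 in ρ+ cells by 201925_s_at, and 178.8, 157.0 and 80.1 against 214.8, 258.1 and 106.7 by 201926_s_at. The C array was the lowest of its group in each case and brought the groups to overlap. By both probe sets each ρ° signal was below the ρ+ signal of the same letter, though letters were not taken as pairs. The log2 changes were −0.76 (SE 0.37) and −0.47 (SE 0.53), and the second ranged from −0.85 without ρ+ C to −0.11 without ρ° C.

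CD59, the inhibitor of the membrane attack complex, was higher in A549 ρ° cells by 3 of its 4 probe sets without overlap. The signals of 200985_s_at were 906.7, 1028.6 and 822.0 in ρ° and 501.5, 475.7 and 623.2 in ρ+ cells, and those of 200984_s_at 817.3, 824.1 and 711.7 against 576.3, 465.3 and 414.0. For 200983_x_at they were 1317.7, 1192.2 and 1117.9 against 843.4, 1009.3 and 686.3. The log2 changes of these sets were 0.79 (SE 0.15), 0.70 (SE 0.16) and 0.53 (SE 0.17), or 1.44-fold to 1.73-fold. The set 212463_at gave the same size, 0.53 (SE 0.36), but overlapped, with 198.5, 282.6 and 128.3 against 131.0, 161.8 and 112.9. In 143BTK− the mean was also higher in ρ° cells for the 4 CD59 probe sets, by 0.09 to 0.62 on the log2 scale, and the arrays overlapped in each. The ρ° effects of the lines on CD59 differed by −0.09 (SE 0.63) to 0.70 (SE 0.34) across its probe sets.

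The promoter of CD59 is shown because CD59, like C1R, was higher in A549 ρ° cells (RefSeq, GRCh38.p14, chr11:33736430-33736729, minus strand, same window). Capitals mark matches to the same motifs.
CD59: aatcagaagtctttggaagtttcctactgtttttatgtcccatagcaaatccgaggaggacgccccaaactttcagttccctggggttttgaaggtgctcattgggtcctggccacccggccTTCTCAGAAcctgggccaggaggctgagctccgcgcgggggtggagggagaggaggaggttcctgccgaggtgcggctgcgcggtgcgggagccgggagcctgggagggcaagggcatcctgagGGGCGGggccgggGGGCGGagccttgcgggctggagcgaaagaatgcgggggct
It holds a STAT motif starting at base −128, a motif found in 7.66% of all promoter windows, and GC boxes starting at −4 and 10, present in 45.0% of windows. Of the 9 member genes, 5 had a promoter window in the table. The CFB window held a STAT motif at −92 and a TATA box at −30 (11.5% of all windows), CD46 held GC boxes at −48, −19 and 6, and CD55 held 1 GC box at −46. The NF-kB letters, present in 1.28% of all windows, matched in none of the 5, which says only that these letters are not in the windows read.

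In 143BTK− the ρ° B and ρ+ C arrays were higher than the rest for CD55 and for some probe sets of the other membrane regulators and CLU. CD55 had signals of 39.8, 168.7 and 53.5 on the ρ° arrays and 59.1, 45.4 and 170.7 on the ρ+ arrays by 201925_s_at, and 71.1, 225.8 and 70.0 against 70.9, 62.4 and 225.4 by 201926_s_at. In both probe sets the ρ° B and ρ+ C arrays stood near each other and far above the other 4. CD59 by 212463_at showed the same arrays on top, with 133.1, 300.2 and 106.7 against 109.6, 56.3 and 190.8. In 5 of the 11 kept member probe sets (both of CD55, CLU 208791_at, CD46 207549_x_at and CD59 212463_at) these arrays were higher than all the others, as in 13.1% of all kept probe sets of the line, and in 0 of 11 they were lower than all the others, against 14.2%. The other 3 CD59 probe sets did not share the pattern: by 200983_x_at, for example, the pair had 709.3 and 639.3 among other signals of 456.2 to 727.5. The ρ° B and ρ+ C arrays were picked after the data were seen, and the 11 probe sets read only 4 genes. Nothing is therefore read from the shares above. The labels name no batch that these arrays share.

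Without the ρ° B and ρ+ C arrays, the CD55 changes in 143BTK− were −0.17 and 0.08, close to the −0.12 (SE 0.86) and 0.06 (SE 0.81) of all 6 arrays. CD46 then changed by 0.05 to 0.40 and CD59 by 0.05 to 0.60 over their probe sets.

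**Figure D3:**
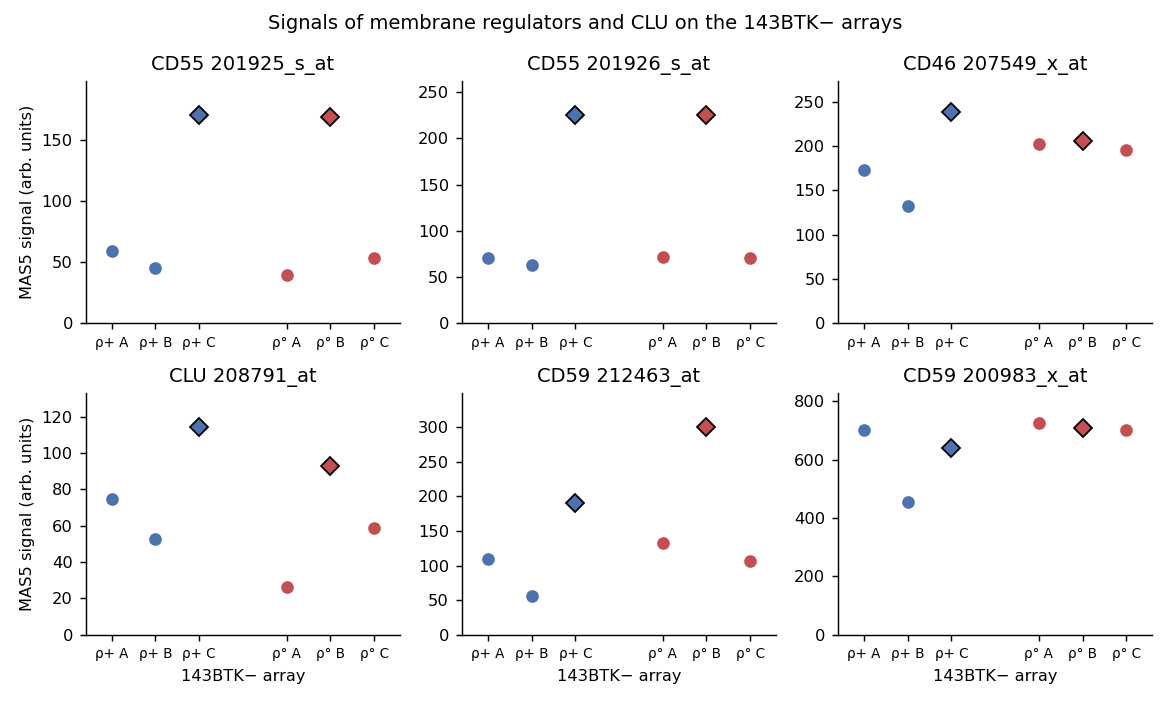
MAS5 signal (linear axis from 0, arbitrary units) of 6 member probe sets on each of the 143BTK− arrays, ρ+ in blue and ρ° in red, 1 point an array. Diamonds mark the ρ° B and ρ+ C arrays; they lie at 168.7 and 170.7 for CD55 201925_s_at, above the other 4 arrays at 39.8 to 59.1, but within the range of the others for CD59 200983_x_at.

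The genes lie on several chromosomes (GRCh38.p14). CD55 (207321678 to 207360966) and CD46 (207752038 to 207795516) are both on chromosome 1, CD59 and SERPING1 are on 11, C1R and C1S on 12, CFB on 6, C3 (6677704 to 6720650) on 19 and CLU on 8. The median log2 change of all kept probe sets of the chromosome in A549 was −0.02 for 19, which holds C3, and −0.26 for that of CLU. It was 0.08 for 12, 0.19 for 11 and −0.03 for 1. As the members were chosen on these contrasts, nothing is read from the size of their changes beside these medians. A part of chromosome copy number in the member changes was not tested.

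Of the other genes of the complement system, 47 were listed and 39 measured, by 50 probe sets. In A549, 14 of the 39 were kept, of which, by the brightest probe set of each gene, 1 rose and 0 fell at an adjusted p under 0.05 from limma, against 5.53% of all kept probe sets that rose and 5.07% that fell. The median log2 change of the 14 was −0.27. The gene that rose was C5, the component that starts the membrane attack complex: its signals were 193.3, 157.7 and 121.4 in ρ° and 68.4, 57.2 and 85.0 in ρ+ cells of A549. The ρ° arrays were all higher, and the log2 change was 1.16 (SE 0.26, adjusted p = 0.0205 from limma). The call was lost without ρ° A (adjusted p = 0.102 from limma), ρ° B (0.0713) or ρ+ B (0.086).

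The 5 other kept genes of the system with the highest mean signal over all 12 arrays did not pass by that probe set in A549. C1QBP, a mitochondrial protein that binds C1q, had signals of 777 ± 159 against 952 ± 110 (ρ° against ρ+, SD, n = 3) by 208910_s_at. Its second kept probe set, 214214_s_at, was lower in ρ° cells without overlap, with 543.5, 484.4 and 622.4 against 854.8, 751.7 and 869.0 (log2 change −0.59, SE 0.17, adjusted p = 0.0499 from limma), so the call of C1QBP in A549 depends on the probe set. CFD, the protease that activates factor B, had 223 ± 44.7 against 164 ± 57.7, and ITGAM, a chain of complement receptor 3, 32.2 ± 9.06 against 37.6 ± 1.21. The receptor chain ITGB2 had 48.0 ± 14.2 against 24.8 ± 4.51, and MASP2, a protease of the lectin pathway, 33.1 ± 3.91 against 29.0 ± 9.99. C4BPA, a chain of the C4b-binding protein, and CFI, the protease that cleaves C3b and C4b, are named after their values were seen because they passed under other settings: C4BPA had 12.8, 5.5 and 3.6 in ρ° against 42.1, 70.3 and 43.2 in ρ+ cells of A549, and CFI 16.2, 9.7 and 1.0 against 29.9, 31.2 and 58.7. Neither was kept, and both had ρ° means under the kept range.

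In 143BTK− 8 of the 39 genes were kept and 0 passed the test, with 2 at an unadjusted p under 0.05 from limma, beside 0.0% of all kept probe sets at the adjusted threshold (0 of 13370, 1142 unadjusted). One was C1QBP, with 621.3, 575.9 and 864.5 in ρ° against 1462.6, 1371.6 and 1428.5 in ρ+ cells, a log2 change of −1.07 (SE 0.20, adjusted p = 0.244 from limma); by 214214_s_at the change was −0.84 (SE 0.21, adjusted p = 0.388 from limma). The other was COLEC12, a scavenger receptor with a collectin domain, at 166 ± 44.6 against 92.8 ± 43.2 (SD, n = 3; adjusted p = 0.568 from limma). The difference between the lines could be tested for 5 genes and passed for 0 of them, 1 at an unadjusted p under 0.05, beside 1.86% of all 11967 probe sets kept in both lines. Without the ρ° B and ρ+ C arrays of 143BTK−, 0 of 8 genes passed in that line and 0 of 4 for the difference.

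**Figure D4:**
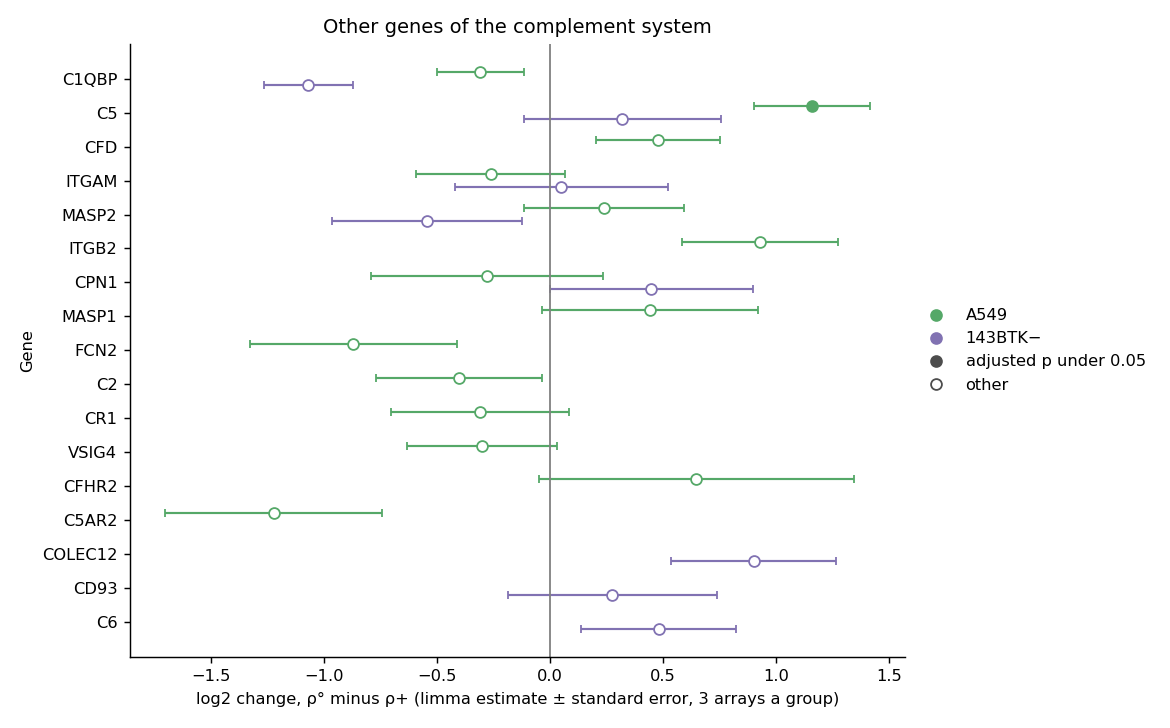
Log2 change (ρ° minus ρ+, horizontal axis) of the other complement genes kept in A549 (14, green) and in 143BTK− (8, purple), with standard errors from limma on 3 arrays a group. The filled point, C5 in A549 at 1.16, passed an adjusted p under 0.05, and C1QBP in 143BTK− lies at −1.07. C5AR2 in A549 and MASP2, CPN1 and CD93 in 143BTK− have a group mean under the kept range.

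The liver acute-phase proteins and the signals known to induce complement genes were read in the same fits. Of 16 measured acute-phase genes, 7 were kept in A549, where 0 rose and 1 fell, beside 5.53% and 5.07% of all kept probe sets. This was LCN2, an iron-scavenging lipocalin, with 5.2, 17.0 and 24.1 in ρ° against 90.1, 110.2 and 150.2 in ρ+ cells (adjusted p = 0.00537 from limma), the ρ° mean being under the kept range. Of 23 measured inducers and their signalling genes, 18 were kept in A549, and 3 rose and 0 fell, beside the same 5.53% and 5.07%. At an unadjusted p under 0.05 from limma, 6 of the 18 were higher and 4 lower in ρ° cells. Of all 13370 kept probe sets of A549, 3616 reached that unadjusted threshold in either direction. The median log2 change of the 18 was 0.08. The 4 lower were IFNGR1 (log2 change −0.62), IL1R1 (−0.54), NFKB1 (−0.59) and IL1B. IL1B had 18.5 ± 16.5 in ρ° against 49.6 ± 9.62 in ρ+ cells (SD, n = 3). Its ρ° mean is so near the lowest mean kept that no size is given. The 3 that rose at the adjusted threshold encode receptor chains. IL6R had 41.9, 52.2 and 39.3 in ρ° against 16.2, 14.8 and 12.7 in ρ+ cells (adjusted p = 0.0197 from limma). Its ρ+ mean is under the kept range. IL6ST, the shared signalling chain of the IL-6 family, changed by 0.90 on the log2 scale (SE 0.18, adjusted p = 0.0129 from limma). The other kept probe sets of IL6ST changed by −0.001 to 1.55. IFNGR2, a chain of the interferon gamma receptor, changed by 0.86 (SE 0.18, adjusted p = 0.0162 from limma). The calls of all 3 were lost without ρ° A (adjusted p = 0.0839, 0.0698 and 0.086 from limma, in the order named), that of IL6R also without ρ° B (0.0839) or ρ+ B (0.0543), and that of IFNGR2 without ρ+ B (0.061). IL6 itself, at 67.8 ± 31.8 against 31.6 ± 4.95 (ρ° against ρ+, SD, n = 3), did not pass (adjusted p = 0.0923 from limma). In 143BTK−, 4 acute-phase genes and 17 inducers were kept and 0 passed, with 0 and 1 at an unadjusted p under 0.05 from limma. Of all 13370 kept probe sets of that line, 1142 reached the unadjusted threshold.

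By the brightest kept probe set of each gene, the member with the largest change was C3 in A549 and CLU in 143BTK−. Over the 6 arrays of A549, the genes most like C3 among 8159 were EPHB6, EIF2AK1, AFG3L2, SEMA3F and TGFBRAP1, with Pearson r of log2 signal from 0.986 to 0.994. Over the 6 arrays of 143BTK−, those most like CLU among 8040 were MYOF, LIG3, KRT1, PLLP and RORA (r from 0.981 to 0.994). As the 6 arrays fall into 2 groups, r is a description only.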

How the data were processed

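RNA of 12 samples was hybridised to Affymetrix arrays of 22283 probe sets, with 3 arrays in each of 4 groups. The deposited values are signal intensities on a linear scale. The authors computed them from the scanned arrays with MAS5, which the submitters' processing notes also name, and brought them by quantile normalization, line by line, to equal quantiles, which forces the arrays of a line to 1 common distribution. Gene names came from the platform annotation (19071 of 22283 probe sets with a single gene, 1043 with several and 2169 with none) and positions from RefSeq. Here log2 intensities were fitted with limma 3.58.1 (R 4.3.3; lmFit, eBayes with an intensity trend) in each line, and over all 12 arrays for the difference between the lines, with Benjamini-Hochberg adjustment over the kept probe sets (the brightest 60% in each line). The fit was tested on simulated data. The authors' error model had been fitted on arrays not used here, so limma took its place, and their filter on Absent calls was replaced by the filter on brightness. The number of arrays limits the precision.

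Members and gene lists were chosen with earlier results of these data known. The genes named were all members, the other listed genes that passed, up to 5 more complement genes with the highest mean signal, and the 5 genes most like the member of largest change in a line. A gene was represented by its kept probe set with the highest mean over 12 arrays. Arrays with the same replicate letter were not taken as pairs, since the authors' methods describe no pairing. In A549 their deviations correlated at 0.05 to 0.11, above the −0.11 to 0.02 of arrays with different letters. In 143BTK− the values were −0.11 to 0.39 for the same letter and −0.50 to 0.41 for different letters. Alternatives were 16 added before log2, no filter, a mean signal of at least 100, no trend, quantile normalization over 12 arrays, a replicate block, 1 fit of 12 arrays, averaging a gene's probe sets, and every array in turn left out. Leaving out the ρ° B and ρ+ C arrays of 143BTK− was chosen after seeing the data.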

Additional observations from a re-analysis of the deposited data

Results flagged for a closer look

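The CLU probe set 222043_at was higher on every ρ° than on every ρ+ array of A549 and lower on every ρ° than on every ρ+ array of 143BTK−. The log2 change in A549 was 1.50. No size is given for 143BTK−, where the mean signals were under the range kept, the difference between the lines was not tested, and the probe sets 208791_at and 208792_s_at of CLU overlapped between the states there.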

How the results depend on the processing

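The number of probe sets called in A549 was 1417, 745 without the intensity trend, and 426 to 1900 with 1 array left out. In 143BTK− 0 were called, 1 with the replicate block and 9 in 1 fit of 12 arrays. The difference between the lines gave 223, 124 without the trend, 58 to 309 with 1 array left out, and 200 without the ρ° B and ρ+ C arrays of 143BTK−, where 143BTK− itself again gave 0. Of the other complement genes, 1 was called in A549, 3 with 16 added before log2 (C5, C4BPA and CFI), 2 without a filter (C5 and C4BPA), 0 in 1 fit of 12 arrays, where C5 had an adjusted p of 0.0609 from limma, and 0 to 2 with 1 array left out. With the replicate block C5 kept its call (adjusted p = 0.0312 from limma) and the count in A549 stayed at 1. In 143BTK− 2 of the 18 member probe sets separated the groups, beside 2976 of all 22283 probe sets, and 0 of these 2 were among those kept. Of the other A549 calls, KRT8 and CDH1 lost theirs under several settings, among them without the trend, with the replicate block (CDH1), in 1 fit of 12 arrays and without ρ° A, ρ° B or ρ+ B, IL6R and IFNGR2 in 1 fit of 12 arrays, and LCN2, KRT18 and KRT19 under no setting run. The A549 change of CD46 went from 0.05 to −0.30 as the mean of its probe sets. The other member changes moved by less than 1 SD between arrays. With 3 arrays a group, leaving out 1 array cannot move a change that far, and the replicate block leaves it as it is. The limit of 1 SD therefore tests neither. Leaving out 1 array took CD55 in 143BTK− to between −0.50 and 0.64, and CLU there to between −0.96 and −0.06. Changes near 0 (CD46 in both lines, CD55 in 143BTK−) changed sign under some settings. The causes were not tested.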
